A study of Mus musculus with 2 samples.

Results

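The 10 genes described here serve the presentation of peptides on major histocompatibility complex (MHC) class I: the heavy chains H2-K1, H2-D1 and H2-T23, their light chain B2m, the peptide loading genes Tap1, Tap2 and Tapbp, the immunoproteasome subunits Psmb8 and Psmb9, and the class I regulator Nlrc5. They were chosen by name and function and not by a measured value, though with earlier results of these data known. They are 10 of the 19831 genes listed in each of both tables. All 10 had a mean level of at least 20 CPM (UMIs, that is molecules counted by unique molecular identifiers, per 1000000 UMIs), so none was lost to a filter on low values.

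Class I molecules show short peptides from a cell's own proteins to CD8+ T cells. The proteasome cuts the proteins, and in cells exposed to interferon the immunoproteasome subunits take the place of constitutive ones. The TAP transporter, a pair of Tap1 and Tap2, carries the peptides into the endoplasmic reticulum. There tapasin, the product of Tapbp, holds the transporter beside an empty heavy chain bound to B2m until a peptide is loaded. Nlrc5 is a nuclear coactivator of class I promoters. Endothelial cells express class I genes constitutively and raise them under interferon, and in a tumour they are the lining that circulating T cells meet first.

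The cells were CD31+ tumour endothelial cells sorted from adult C57BL/6 mice and run on a 10x Genomics droplet system with 3′ v3.1 chemistry. The knockout library was titled NF2 KO, for a knockout of Nf2, the gene of the membrane-associated protein merlin, and the other library was titled control, with 1 library of each. The tumour type, the number of mice, the exons removed, and the promoter or recombinase used are not stated by the sources used here. Barcodes carry 1 of 2 run numbers in either library, whose meaning the labels do not state. Runs are parts of 1 sample, not replicates, and their difference is given as a background.

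The knockout library held 3368 cells with 58907098 UMIs and the control library 2826 cells with 34649992 UMIs. Median depths were 14337 and 16723.5 UMIs per cell in the knockout runs, against 2746 and 19409 in the control runs, so control run 1 stood apart. At most 1 barcode was shared between any pair of runs. After filters, removal of doublets and removal of 5 shallow clusters, 2802 knockout cells (1153 and 1649 by run) and 1430 control cells (831 and 599) were retained, with medians of 16946.5 and 17484.5 UMIs. Pecam1, the gene of CD31, stood at 999.6 and 1089 CPM in the knockout runs and at 1124 and 1158 CPM in the control runs. Nf2 stood at 20.4 and 20.5 CPM in the knockout runs, against 21.3 and 22.7 CPM in the control runs. Tags from the 3′ end may lie outside the removed exons and are no check of the label. Markers of leukocytes, which express class I genes strongly, summed over 47 genes to 157 and 200 CPM in the knockout runs and to 168 and 165 CPM in the control runs, with 5 of them at 0 in the knockout and 3 in the control library. Their part in what follows was not tested, except where values without such cells are given.

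In the GRCm38 (mm10) build, with GENCODE M21 annotation, 8 of the 10 genes lie on chromosome 17, in the MHC region or beside it. From low to high coordinate these are Tapbp (chr17:33915899-33929292, plus strand), H2-K1 (chr17:33996017-34000347, minus), Psmb9 (chr17:34181987-34187764, minus), Tap1 (chr17:34187553-34197225, plus), Psmb8 (chr17:34197721-34201454, plus), Tap2 (chr17:34203527-34216321, plus), H2-D1 (chr17:35262730-35267499, plus) and H2-T23 (chr17:36029773-36032855, minus). B2m lies at chr2:122147686-122153083 on the plus strand and Nlrc5 at chr8:94434356-94527272 on the plus strand. Psmb9 and Tap1 start head to head and overlap at their starts.

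Class I genes are controlled through short promoter modules, and the promoters of the 3 heavy chains, B2m and Tap1 are printed because they cover the surface molecule and the transporter and hold the letters searched. RefSeq promoters of GRCm38.p6, which run from 250 bases before to 50 bases after the start, were found for 8 of the 10 genes. Tap2 and Nlrc5 had no entry. The windows, read along each gene, are chr17:34000298-34000597 (minus strand) for H2-K1, chr17:35262844-35263143 (plus) for H2-D1, chr17:36032652-36032951 (minus) for H2-T23, chr2:122147437-122147736 (plus) for B2m and chr17:34187306-34187605 (plus) for Tap1, which overlaps the window of Psmb9 (chr17:34187281-34187580, minus). Capitals mark the letters searched on both strands: the interferon response element core (GAAA, 2 free bases, GAAA), the kappa B motif (GGGGA joined to TTCCC, with up to 1 mismatch) and TGACG, the short form of TGACGTCA, the X2 box of class I promoters.
H2-K1: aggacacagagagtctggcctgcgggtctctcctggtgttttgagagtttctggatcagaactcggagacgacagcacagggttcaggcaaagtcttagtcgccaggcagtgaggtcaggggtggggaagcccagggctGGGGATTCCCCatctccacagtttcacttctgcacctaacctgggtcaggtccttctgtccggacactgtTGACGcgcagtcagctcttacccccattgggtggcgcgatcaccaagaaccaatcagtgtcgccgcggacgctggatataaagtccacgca
H2-D1: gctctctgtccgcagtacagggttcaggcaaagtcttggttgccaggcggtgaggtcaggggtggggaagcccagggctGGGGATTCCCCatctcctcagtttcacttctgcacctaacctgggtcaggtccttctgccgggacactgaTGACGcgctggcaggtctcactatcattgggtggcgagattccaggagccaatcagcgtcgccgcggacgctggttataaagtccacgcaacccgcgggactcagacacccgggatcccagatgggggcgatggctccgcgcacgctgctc
H2-T23: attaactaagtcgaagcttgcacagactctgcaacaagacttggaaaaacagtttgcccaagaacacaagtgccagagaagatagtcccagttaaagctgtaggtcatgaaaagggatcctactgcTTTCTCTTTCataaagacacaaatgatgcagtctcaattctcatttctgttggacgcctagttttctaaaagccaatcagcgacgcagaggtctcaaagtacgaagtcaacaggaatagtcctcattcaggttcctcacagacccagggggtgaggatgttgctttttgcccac
B2m: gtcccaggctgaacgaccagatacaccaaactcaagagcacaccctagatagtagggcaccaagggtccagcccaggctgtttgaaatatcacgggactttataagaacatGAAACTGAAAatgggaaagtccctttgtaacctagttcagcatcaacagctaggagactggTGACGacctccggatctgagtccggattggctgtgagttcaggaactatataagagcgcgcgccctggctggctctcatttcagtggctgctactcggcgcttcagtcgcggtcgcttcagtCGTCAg
Tap1: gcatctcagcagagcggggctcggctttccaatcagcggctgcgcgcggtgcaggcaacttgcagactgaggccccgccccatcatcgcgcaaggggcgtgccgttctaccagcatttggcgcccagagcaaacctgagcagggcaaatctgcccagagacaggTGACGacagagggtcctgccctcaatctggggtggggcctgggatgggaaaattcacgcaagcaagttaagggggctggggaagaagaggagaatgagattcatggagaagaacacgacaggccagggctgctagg

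The windows of H2-K1 and H2-D1 held the kappa B letters on both strands, which overlap each other, at positions -111 and -171 from the start on the plus strand. Of 32851 RefSeq promoters of this length, 1.89% hold them. The interferon response letters began at position -139 in B2m and, on the other strand, at -124 in H2-T23, against 3.44% of all promoters. TGACG was in the windows of H2-K1 (-41), H2-D1 (-101), B2m (-78, and 45 on the other strand), Tap1 (-86) and Psmb9 (-144, on the other strand), against 20.8% of all promoters. H2-K1 has a second RefSeq window, chr17:34000284-34000583, which is not printed. From its start the same kappa B and TGACG letters lie at -125 and -55. The letters found in Tap1 and Psmb9 are the same bases, which lie in the overlap of their windows. The full TGACGTCA was in none of the 9 member windows and is in 1.79% of all promoters. The windows of Tapbp and Psmb8 held none of the letters searched. Matches of letters are a description and not a binding site, and a window without them says nothing on the factor.

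The classical heavy chains and their light chain were at nearly the same level in both libraries. B2m, which every class I heavy chain needs to reach the surface, had 3060 and 3552 CPM in the knockout runs, against 3509 and 3212 CPM in the control runs. The groups of runs overlapped, and the library ratio (knockout over control) was 1.01 (95% counting interval 0.9996 to 1.02). H2-K1, a classical heavy chain, had 2405 and 2485 CPM in the knockout runs and 2256 and 2686 CPM in the control runs. Its control runs lay on either side of its knockout runs, and the ratio was 0.990 (0.981 to 0.999). H2-D1, the other classical heavy chain of this strain, had 2564 and 3029.8 CPM in the knockout runs, against 2763 and 3309 CPM in the control runs. Run 2 was above run 1 in each library, 1.18 times in the knockout and 1.198 times in the control, while the library ratio was 0.940 (0.932 to 0.948). These 3 genes supplied 87.4% of the members' UMIs in the knockout library and 88.9% in the control library.

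H2-T23 had the largest library ratio of the 10 genes, and it was also the gene whose runs differed most. It encodes Qa-1, a nonclassical heavy chain that presents leader peptides of other class I molecules to CD94/NKG2 receptors of natural killer and T cells. Its level was 101 and 159 CPM in the knockout runs and 89.8 and 114 CPM in the control runs. The ratio was 1.35 (1.29 to 1.41), but knockout run 1 lay below control run 2, and the knockout runs differed between themselves by 1.58 times. Of its 90-base windows near the 3′ end, 13.4% also occur in another gene (H2-T-ps, Hook2 or Rab33b). A part of its reads could thus be shared with those genes. For H2-K1 this share was 0.151%, and for the other 8 genes none was found. Antisense neighbours that reach the 3′ ends stood at 0 CPM for B2m and Psmb8, and for H2-T23 at 0.917 CPM in the knockout and 0.834 CPM in the control library.

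The loading genes differed little between the libraries. Tap1 had 125 and 175 CPM in the knockout runs and 122 and 165 CPM in the control runs, with a ratio of 1.09 (1.05 to 1.13). Tap2 had 93.2 and 118 CPM in the knockout runs, against 90.3 and 116 CPM in the control runs, with a ratio of 1.05 (1.01 to 1.10). Both genes of the transporter were higher in run 2 than in run 1 of either library, Tap1 by 1.40 times in the knockout and 1.35 times in the control. Tapbp had 145 and 166 CPM in the knockout runs and 145 and 150 CPM in the control runs, with a ratio of 1.07 (1.03 to 1.11). For all 3 genes, the knockout runs differed from each other by more than the libraries did.

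The immunoproteasome subunits were slightly higher in the knockout library, with runs that overlapped. Psmb8, which replaces the constitutive subunit Psmb5, had 387 and 489 CPM in the knockout runs and 375 and 418 CPM in the control runs, a ratio of 1.14 (1.11 to 1.16). Psmb9, which replaces Psmb6, had 188 and 234 CPM in the knockout runs, against 175 and 205 CPM in the control runs, a ratio of 1.14 (1.10 to 1.18). Knockout run 1 was below control run 2 for each of these genes. Set against the subunit it replaces, there were 1.67 UMIs of Psmb8 per UMI of Psmb5 in the knockout library (1.39 and 1.83 by run), against 1.45 in the control library (1.38 and 1.501). There were 0.876 UMIs of Psmb9 per UMI of Psmb6 in the knockout and 0.785 in the control library. Such ratios of 3′ tags depend on how well either transcript is captured, so they are compared across cells and not read as proteasome composition.

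Nlrc5 was the only member whose runs did not overlap. It had 24.96 and 24.3 CPM in the knockout runs, against 16.7 and 21.3 CPM in the control runs, with a ratio of 1.28 (1.16 to 1.42) from 1311 knockout and 550 control UMIs. Non-overlapping runs were common: 65.0% of the 5851 genes with a mean of at least 20 CPM had both knockout runs above or below both control runs, and 26.9% had them above. Ciita, the class II relative of Nlrc5, stood at 1.49 and 3.27 CPM in the knockout runs and 6.34 and 6.45 CPM in the control runs, below the level at which genes were counted.

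**Figure D1:**
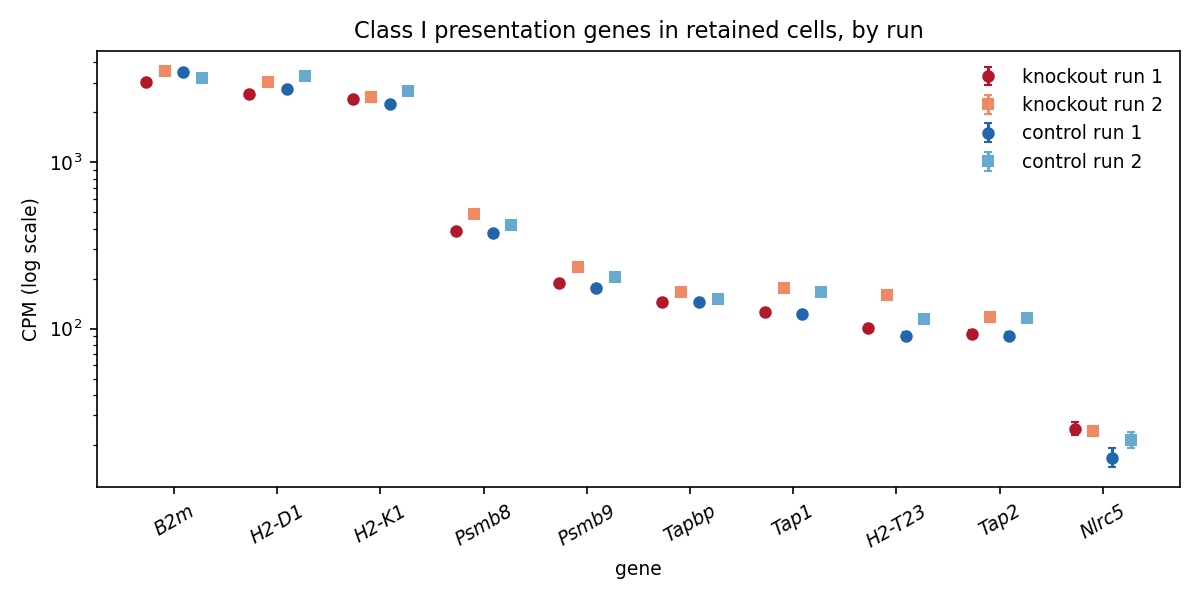
Level of each of the 10 genes in retained cells (CPM, log axis) for 2 knockout and 2 control runs, with 95% Poisson intervals. The knockout and control runs interleave for every gene but Nlrc5, whose knockout runs (24.96 and 24.3 CPM) lie above its control runs (16.7 and 21.3 CPM).

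For 9 of the 10 genes, Nlrc5 being the exception, the libraries differed by less than the runs of at least 1 library did. A gene was counted as different if the libraries differed by 1.5 times or more, if the counting interval left out 1 and if the mean level reached 20 CPM. By this rule 0 of the 10 members were counted, against 8.10% of 5851 genes (2.75% higher and 5.35% lower). With 1 library a group no test is possible, and the intervals cover counting error only. With a lower threshold of 25% above 1 (or its inverse), H2-T23 and Nlrc5 were counted as higher, 2 of 10 against 6.44% of all genes higher and 19.9% in either direction. The median log2 ratio was 0.11 over the members and -0.03 over all genes tested, and 8 of the 10 ratios were above 1, against 43.3% of all genes tested. The summed level of the 10 genes was 9092 and 10432 CPM in the knockout runs and 9542 and 10396 CPM in the control runs. Its library ratio was 0.997 (0.993 to 1.002), while run 2 exceeded run 1 by 1.15 times in the knockout and 1.09 times in the control. Without cells in which leukocyte markers exceeded 0.1% of the UMIs, the ratio of the sum was 0.9997.

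**Figure D2:**
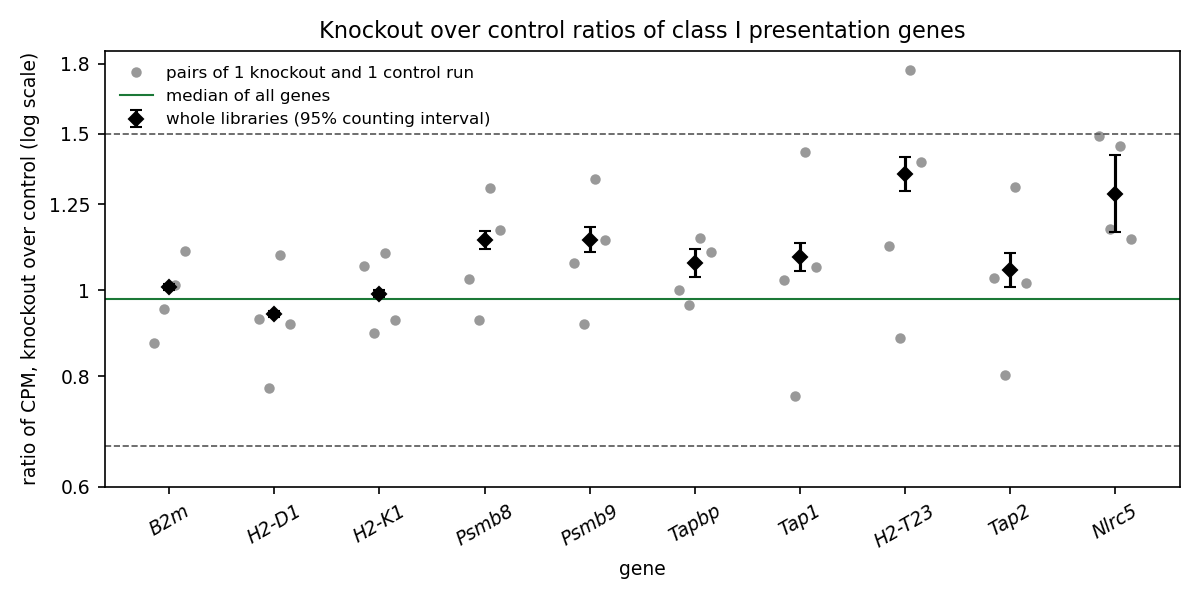
Ratio of CPM, knockout over control (log axis), for each of the 10 genes with its 95% counting interval, beside the ratios of the 4 pairs of 1 knockout and 1 control run (grey). Dashed lines mark 1.5 in either direction and the green line the median of all genes. No library ratio reaches 1.5, and the pairs of H2-T23 run from 0.882 to 1.77.

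The rest of the pathway was similarly placed. By the same size rule 8.10% of all genes tested were counted as different (2.75% higher and 5.35% lower). Of 25 further class I presentation genes, 15 had at least 20 CPM, and 0 were counted as different (median log2 ratio 0.09). The 4 most abundant were the chaperone calreticulin (Calr, 740 CPM in the knockout and 880 CPM in the control library), the Qa heavy chain H2-Q7 (614 and 744 CPM), the peptide loading complex member Pdia3 (566 and 592 CPM) and the proteasome activator subunit Psme1 (359 and 289 CPM). None of the 14 constitutive proteasome genes was counted (median 0.08). Of 25 regulators, 18 had at least 20 CPM, with 1 counted higher and 1 lower (median -0.04), a share near that of all genes. Socs3, an inhibitor of cytokine receptor signalling, had 255 and 250.2 CPM in the knockout runs, against 143 and 176 CPM in the control runs, a ratio of 1.57. Irf8, an interferon regulatory factor, had 102 and 127 CPM in the knockout runs and 196 and 195 CPM in the control runs, a ratio of 0.61. Of 38 interferon response genes outside the members, 28 had at least 20 CPM, and 0 were counted (median 0.04).

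Between cell states the same genes differed far more than between libraries. The retained cells formed 10 clusters, and neither the members nor the wider class I list were among the genes used to cluster them. Leading genes and markers gave an interferon-responding-like cluster led by Gbp2, Ubd, Cxcl10 and Cxcl9 (141 cells), another interferon-responding-like cluster led by Rsad2, Ifit3 and Ifit2 (91 cells), and capillary-like (985), venous-like (137), hypoxic-like (472) and mitotic-like (296) clusters. The others are called by their genes: Chga and Cldn4 (917 cells, 26 of them control cells), Gal and Kcnj8 (616 cells, 11 of them knockout cells), Cd36 and Lpl (316 cells, 14 of them control cells), and histone genes with Top2a (261 cells). Where cells of a single library make up nearly all of a cluster, library and cell state cannot be told apart. The Gbp2-Cxcl9 cluster was one of these, with 135 knockout and 6 control cells. The Chga-Cldn4 cluster has an epithelial marker and no endothelial one among its 10 leading genes. Both interferon-responding-like clusters, the mitotic-like cluster and the histone cluster also lack an endothelial one there. Endothelial markers summed to 7922 CPM in the Chga-Cldn4 cluster, within the range of 7338 to 12803 CPM over the 10 clusters. The Gal-Kcnj8 cluster has 2 pericyte and 3 endothelial or tip markers (among them Cldn5). The Cd36-Lpl cluster has the smooth muscle marker Tagln and 2 capillary markers.

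The members were highest in the 2 interferon-responding-like clusters. Their summed level was 14614 CPM (14476 to 14753) in the Gbp2-Cxcl9 cluster and 13327 CPM (13142 to 13514) in the Ifit-Rsad2 cluster. It was 10679.6 CPM in the capillary-like, 10226 in the Chga-Cldn4, 9792 in the Gal-Kcnj8, 9473 in the Cd36-Lpl, 9342 in the venous-like, 9026 in the hypoxic-like, 8701 in the mitotic-like and 7975 CPM in the Hist1h-Top2a cluster. The highest exceeded the lowest by 1.83 times. The Cd36-Lpl and venous-like clusters, neighbours in this order, had overlapping counting intervals. Every one of the 10 genes was highest in the Gbp2-Cxcl9 cluster, and 9 of them came next in the Ifit-Rsad2 cluster, the exception being H2-T23. Psmb8 stood at 806 CPM in each of these 2 clusters. The counting intervals of B2m, Tap1, Psmb9 and Nlrc5 also overlapped between them, so their order there is not resolved.

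The range over clusters was wide for the loading and nonclassical genes and narrow for the classical chains. H2-T23 spanned 4.75 times (318 CPM in the Gbp2-Cxcl9 and 67.01 CPM in the Hist1h-Top2a cluster), Tap2 4.20 times (231 and 55.1 CPM in the hypoxic-like cluster), Nlrc5 3.96 times (56.4 and 14.3 CPM) and Tapbp 3.58 times (294 and 82.1 CPM). Tap1, Psmb8 and Psmb9 spanned 3.07, 2.96 and 2.79 times. H2-K1 and B2m spanned 1.85 times each, and H2-D1 1.67 times.

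**Figure D3:**
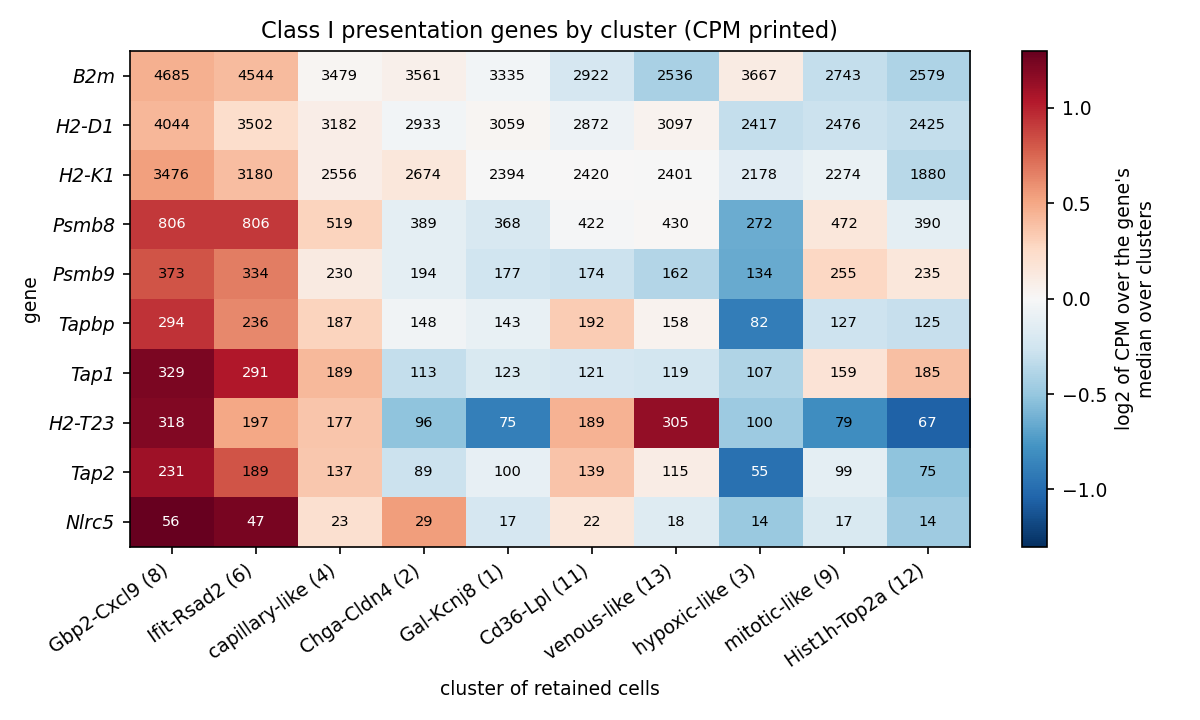
Level of each of the 10 genes in the 10 retained clusters, coloured by the log2 ratio to that gene's median over clusters and labelled with its CPM. The columns of the 2 interferon-responding-like clusters are high for all 10 genes (B2m 4685 and 4544 CPM, Tap1 329 and 291 CPM), and the hypoxic-like cluster is low for Tap2 (55.1 CPM) and Tapbp (82.1 CPM) but not for B2m (3667 CPM).

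Set against all other retained cells, 7 of the 10 members were at least 1.5 times higher in the Gbp2-Cxcl9 cluster, against 4.44% of all genes. H2-T23 was 2.68 times, Nlrc5 2.64 times, Tap1 and Tap2 2.25 times, Tapbp 1.97 times, Psmb8 1.92 times and Psmb9 1.85 times as high. H2-K1 (1.43), B2m (1.41) and H2-D1 (1.40) lay just under the threshold. The same 7 genes passed in the Ifit-Rsad2 cluster, against 5.32% of all genes, from Nlrc5 (2.12) and Tap1 (1.93) to Tapbp (1.55). In both knockout runs of both clusters, and in both control runs of the Ifit-Rsad2 cluster, each of the 10 genes was above its level in the other cells of that run. The Gbp2-Cxcl9 cluster had 5 cells in control run 1, where 8 of 10 were, and 1 in control run 2, so its control level rests on few cells. Leukocyte markers summed to 122 and 172 CPM in these clusters, within the range of 121 to 906 CPM over the 10 clusters.

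Of the 15 further class I presentation genes, 7 passed in each of these clusters, and the other 8 did not. In the Gbp2-Cxcl9 cluster these were Tapbpl, a tapasin relative (2.53 times), Psmb10, the remaining immunoproteasome subunit (2.02), the proteasome activator genes Psme1 (1.96) and Psme2 (1.81), and the heavy chains H2-T22 (1.72), H2-Q4 (1.64) and H2-M3 (1.51). In the Ifit-Rsad2 cluster H2-T22 led at 2.32 times, with Psmb10 at 2.05 times. None of the 14 constitutive proteasome genes passed in either cluster, with medians of 1.04 and 0.98 times. Psmb8 per UMI of Psmb5 was 3.12 and 3.21 in these clusters, against 1.26 to 1.90 in the other 8. Psmb9 per UMI of Psmb6 was 1.53 and 1.52, and Psmb10 per UMI of Psmb7 was 1.91 and 2.26.

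Loading and immunoproteasome genes were low in the hypoxic-like cluster, but the light chain was not. Of 9 members with at least 20 CPM, 4 were at least 1.5 times lower, Tap2 (0.49 times the other cells), Tapbp (0.50), Psmb8 (0.60) and Psmb9 (0.62), against 19.8% of all genes there. B2m was 1.10 times as high. Over the 4 runs the value for Tap2 was 0.43 to 0.53 and that for Tapbp 0.36 to 0.63, while that for B2m was 0.96 to 1.17. Constitutive proteasome genes were also low there, with 6 of 14 lower and a median of 0.68 times, as were 7 of the 15 further class I genes, among them Psmb10 at 0.28 times. The 36 measured interferon response genes summed to 3343 CPM, the lowest of the 10 clusters, against 24410 and 26602 CPM in the interferon-responding-like clusters.

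H2-T23 followed its own order. In the venous-like cluster it stood at 305 CPM (281 to 331), 2.51 times the other cells and not separable from its 318 CPM (298 to 339) in the Gbp2-Cxcl9 cluster. B2m (0.75 times) and Tap1 (0.78 times) were low in the same cells, and 11.2% of all genes were at least 1.5 times higher there. Over the runs the value for H2-T23 was 2.02 to 4.20 times. It was also higher in the capillary-like (1.60 times, against 4.41% of genes) and Cd36-Lpl clusters (1.53 times, against 7.90%). It was lower in the Hist1h-Top2a (0.51 times, against 4.53%), Gal-Kcnj8 (0.55 times, against 4.96%) and mitotic-like clusters (0.61 times, against 5.87%). In the proliferating clusters the members parted: in the Hist1h-Top2a cluster Tap1 was 1.23 and Psmb9 1.14 times the other cells while H2-K1 was 0.74 and B2m 0.75 times. Leukocyte markers were highest in the venous-like cluster, at 906 CPM, and their part in its H2-T23 level was not tested.

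The relation to interferon response genes was seen within every run. Retained cells of each run, thinned to 2000 UMIs, were split in 3 tiers of equal size by their UMIs of interferon response genes, a list that holds no member. These tiers are ranges of a score and not cell types. For all 10 genes the level went up from the low through the middle to the high tier in all 4 runs. In knockout run 1 the summed level was 6772, 8262 and 11942.5 CPM from low to high, and in control run 2 it was 7240.2, 9771 and 14649 CPM. High over low was 3.57 to 5.73 times for H2-T23 over the 4 runs, 2.99 to 3.66 times for Tap1, 2.68 to 2.74 times for Tap2 and 2.48 to 3.18 times for Tapbp. It was 2.51 to 2.78 times for Psmb8, 2.25 to 2.70 times for Psmb9 and 2.11 to 3.64 times for Nlrc5. The classical chains spanned less, 1.62 to 2.13 times for H2-K1, 1.65 to 1.91 times for H2-D1 and 1.46 to 1.81 times for B2m. Leukocyte markers also went up with the tiers, for example 132, 160.3 and 175 CPM in knockout run 1, and their part was not tested. The sum of the members spanned 1.67 and 1.76 times in the knockout runs, against 1.97 and 2.02 times in the control runs.

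**Figure D4:**
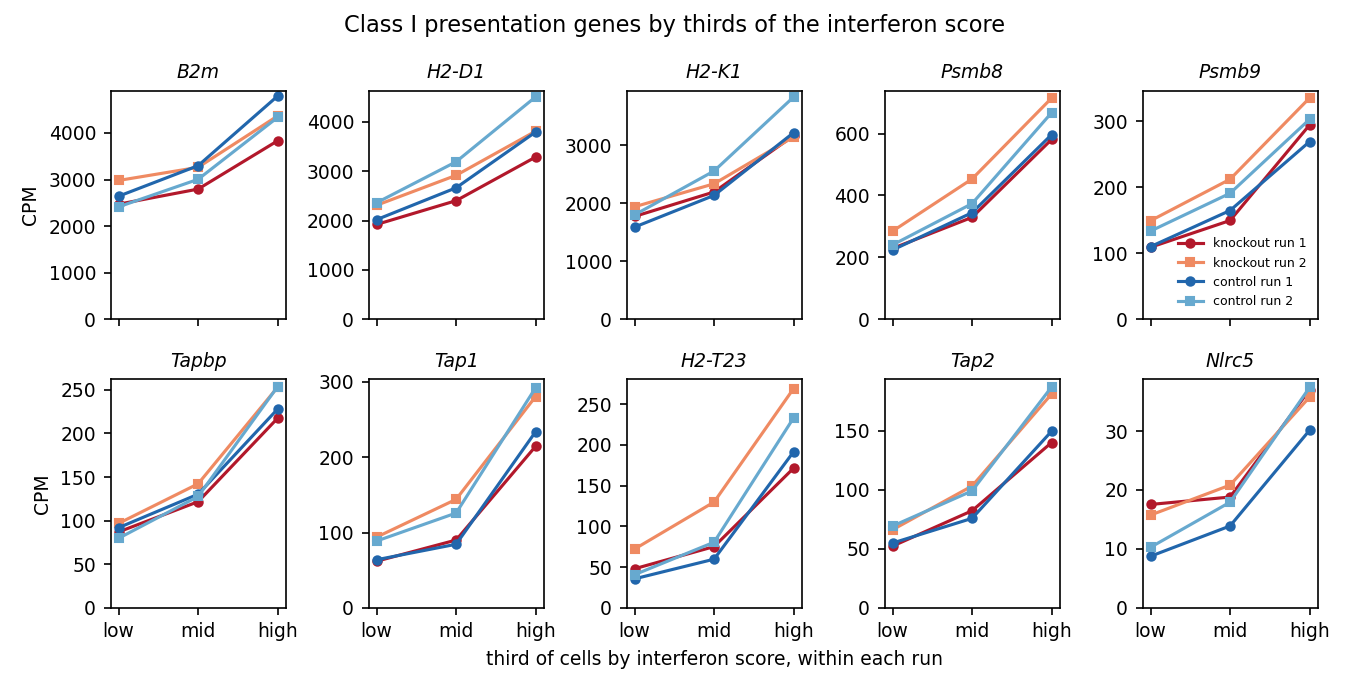
Level of each of the 10 genes (CPM, linear axis from 0) in the low, middle and high tier of retained cells by interferon response UMIs, with 1 line per run (knockout in red tones, control in blue tones). Every line goes up in each panel, most for H2-T23 (high over low 3.57 to 5.73 times) and least for B2m (1.46 to 1.81 times).

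Compared within a state, most members had ratios below 1 in the capillary-like cluster and above 1 in the hypoxic-like and Ifit-Rsad2 clusters, and the difference between clusters was not tested. There were 6 clusters with at least 30 cells of both libraries. In the capillary-like cluster 9 of 10 members had counting intervals below 1 for knockout over control, against 26.2% of the 5780 genes with at least 20 CPM there. The median log2 ratio was -0.23 over the members and -0.02 over all those genes. Counting intervals are narrower for genes with more UMIs. By mean level the members other than Nlrc5 (rank 5578) ranked from 26 to 1524 of 19831 genes. Shares of genes with intervals above or below 1, here and in the other clusters, are thus not matched to the members' levels. H2-K1 had 2064 and 2478 CPM in the knockout runs, against 2670.2 and 3372 CPM in the control runs, a ratio of 0.766 (0.752 to 0.781). H2-D1 had 2419 and 3222 CPM in the knockout runs and 3362 and 4005 CPM in the control runs, a ratio of 0.795 (0.781 to 0.808). Both knockout runs were below both control runs for these genes, B2m and Nlrc5, 4 of 10 against 30.6% of all genes in that cluster, a share near the background. The exception among the 10 was Psmb9, at 1.05 (0.980 to 1.12). Interferon response genes summed to 8770 and 12495 CPM in the knockout runs of that cluster, against 11434 and 14673 CPM in the control runs, and their part in the members' ratios was not tested.

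In the hypoxic-like cluster all 10 ratios were above 1, with a median log2 ratio of 0.23 over the members and -0.04 over all genes. Of the 9 members with at least 20 CPM there, 7 had intervals above 1, against 14.6% of genes, and 44.2% of genes had a ratio above 1. H2-T23 had 76.9 and 129 CPM in the knockout runs and 55.5 and 73.6 CPM in the control runs, a ratio of 1.796 (1.51 to 2.15). Psmb8 had 233 and 324 CPM in the knockout runs, against 225 and 191 CPM in the control runs, a ratio of 1.42 (1.29 to 1.57). Both knockout runs were above both control runs for 5 of these 9, against 21.7% of genes there. Interferon response genes were at 3015 and 3936 CPM in the knockout runs and at 2939 and 2086 CPM in the control runs. In the Ifit-Rsad2 cluster all 10 ratios were above 1 as well (42.8% of genes), with 5 intervals above 1 (9.50% of genes), led by H2-T23 at 1.97 (1.53 to 2.56), and 7 of 10 had knockout runs above control runs, against 17.7% of genes. That cluster held 42 knockout and 49 control cells. Of the control cells, 33 were from run 1, with a median of 5669 UMIs. The other runs held 16 to 26 cells each, with medians of 16671 to 21935.5 UMIs. Leukocyte markers summed to 273 CPM in control run 1 of that cluster, against 103 to 165 CPM in its other runs. The part of depth and of these markers was not tested.

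The remaining clusters were mixed. In the Hist1h-Top2a cluster 6 of 9 intervals were above 1 (16.3% of genes), led by H2-T23 at 1.79 (1.46 to 2.19), and those of H2-K1 and H2-D1 were below 1 (19.6% of genes). Both knockout runs were above both control runs for 3 of 9 there, against 24.3% of genes, a share near the background. In the mitotic-like cluster 4 of 9 ratios were above 1, against 44.4% of genes. Of the 9 intervals in the mitotic-like cluster, 4 were below 1 (20.5% of genes) and 2 above (13.01%). Those below were H2-K1 (0.859), Tap1 (0.869), B2m (0.873) and H2-D1 (0.885), and those above were H2-T23 (1.23) and Psmb8 (1.10). B2m had 2394 and 2774 CPM in the knockout runs there, against 3438 and 2674 CPM in the control runs. Cells of control run 1 in that cluster had a median of 3496.5 UMIs, against 17048 to 23194 in its other runs. Their leukocyte markers summed to 300 CPM, against 128 to 151 CPM. The part of depth and of these markers was not tested. H2-K1 and H2-D1 had both knockout runs below both control runs in the mitotic-like cluster, while Psmb9 had both above. The share of all genes with such runs was not computed for that cluster, so this is no result about the members. In the venous-like cluster 4 of 9 ratios were above 1, against 42.5% of genes. Of the 9 intervals there, 2 were above 1 (7.33% of genes) and 1 below (11.7%). Tap1 had 117 and 147 CPM in the knockout runs and 39.9 and 66.7 CPM in the control runs of that cluster, a ratio of 2.27 (1.53 to 3.47) that rests on 29 control UMIs. Knockout runs were above control runs for 3 of 9 there, against 15.7% of genes. Leukocyte markers in the 17 venous-like cells of control run 1 summed to 2913 CPM, against 470.3 to 1052 CPM in the other runs. With equal weights for these clusters in both libraries, ratios ranged from 0.936 for H2-K1 to 1.21 for H2-T23.

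**Figure D5:**
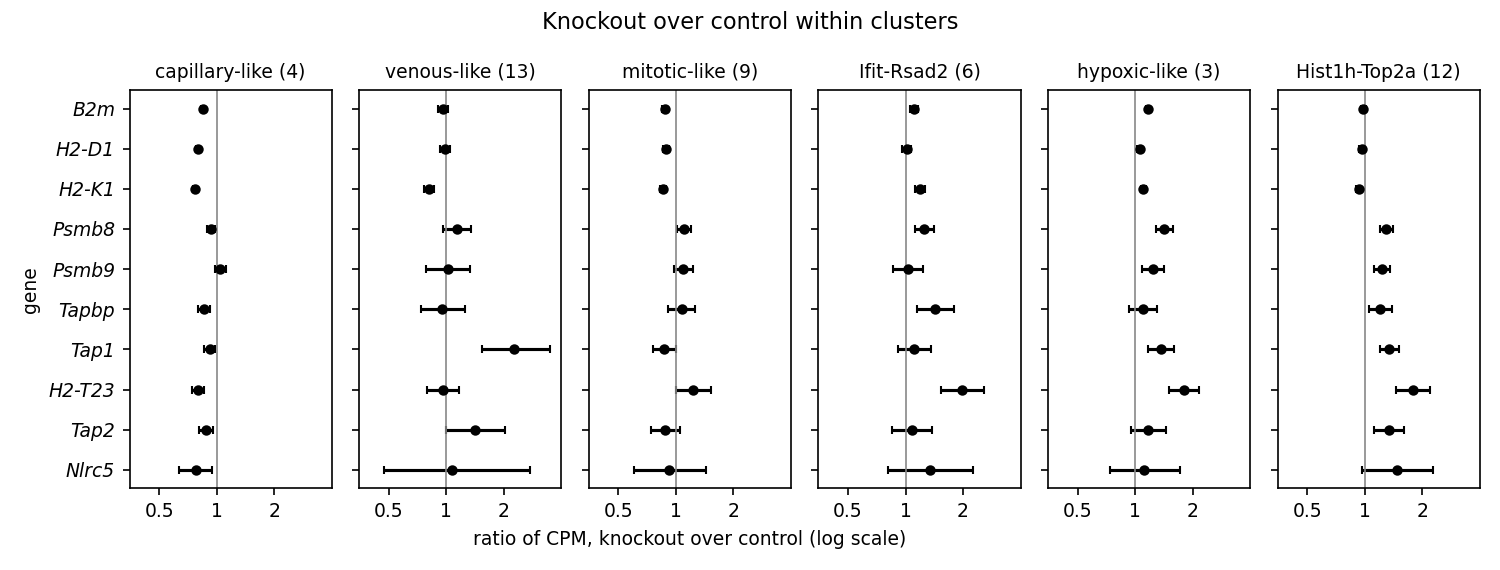
Ratio of CPM, knockout over control (log axis), of each of the 10 genes in the 6 clusters with at least 30 cells of both libraries, with 95% counting intervals. Ratios in the capillary-like cluster lie mostly below 1 (H2-K1 0.766, Psmb9 1.05) and those in the hypoxic-like and Ifit-Rsad2 clusters above 1 (H2-T23 1.796 and 1.97).

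From cell to cell, the classical chains varied together. In cells thinned to 5000 UMIs (2648 knockout and 1234 control cells), the median cell held 16 UMIs of B2m in either library, with 10th to 90th percentiles of 7 to 28 in the knockout and 7 to 29 in the control. H2-D1 had medians of 13 UMIs in the knockout and 14 in the control, and H2-K1 of 11 in each. Their Fano factors, the variance over the mean, were 3.77 to 4.69, where counting error alone gives 1. Psmb8 had a median of 2 UMIs in either library, and the other 6 genes were at 0 or 1. As a description over cells that share library and depth, Pearson's r was 0.62 to 0.67 over the 4 runs for H2-K1 with H2-D1, 0.50 to 0.63 for H2-K1 with B2m and 0.49 to 0.62 for H2-D1 with B2m. Pairs that involve the sparser genes were lower, and in sparse counts a weak r is no finding.

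Over states, Tap2, Psmb8, Tapbp and Nlrc5 followed the rest of the list most closely, and B2m and H2-T23 least. Taken over 29 units, each a cluster in 1 run with at least 20 cells, r of a member with the mean of the other 9 was 0.94 for Tap2, 0.91 for Psmb8, 0.88 for Tapbp and Nlrc5, 0.85 for H2-D1, 0.81 for H2-K1, 0.73 for Psmb9, 0.71 for Tap1, 0.65 for H2-T23 and 0.56 for B2m. These units share runs and clusters, so r is a description. The divergent neighbours Tap1 and Psmb9 had r of 0.89, as did H2-K1 with H2-D1, and Tap2 had 0.90 with both Psmb8 and Tapbp. H2-T23 with Psmb9 had the lowest, 0.30. Among 5898 other genes, whose median r with the members' mean was -0.06, the 8 most alike were Psme1 (0.95), Tgtp1 (0.95), Parp9 (0.95), Gbp2 (0.94), Ube2l6 (0.94), Igtp (0.93), Gbp7 (0.93) and Gm4951 (0.93). Psme1 encodes a subunit of the proteasome activator, and Gbp2, Gbp7, Igtp and Tgtp1 are interferon-inducible GTPases.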

How the data were processed

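Single-cell 3′ RNA libraries of CD31+ tumour endothelial cells, 1 per group, were analysed from the tables the authors deposited. The submitters' processing notes name Cell Ranger 3.0.0, Seurat 3.1.1 and mm10 but no settings. The authors deposited natural log values per gene and cell. Each equals the natural log of 1 plus 10000 times a UMI count over its cell's total: 100% of them gave whole UMIs within 0.01 UMI. Counts had been assumed, and the recovered UMI counts took their place. No column was left unused (0). Whether counting used strand is not given in the sources used here. The authors had already filtered the cells, since the deposited cells hold 501 to 7994 genes.

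Cells needed 500 genes, 1000 UMIs and a mitochondrial share of no more than 10%. Scrublet in scanpy 1.11.5 (Python 3.11.15) marked 0% as doublets, so the 5% with the highest scores were removed per library (166 knockout and 129 control cells). Cells were clustered without integration on 30 principal components of 2000 variable genes, 15 neighbours and Leiden resolution 0.8 (igraph 0.11.9). A cluster was left out if its cells' depth, relative to their library, had a median under 0.333 and its 10 leading genes held no endothelial marker. Counts of retained cells were summed per library and run (CPM) with exact Poisson intervals, and ratios have exact conditional intervals, all at 95% (scipy 1.17.1). PCR and sampling of cells are not covered by them. With 1 library a group no test between the conditions was made. The size rule was tried on simulated data.

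The members, gene lists and markers were chosen with earlier results of these data known. All 10 members are named. For the comparison of libraries, the regulators counted as different are named. In the list of further class I genes, where none was counted, the 4 with the highest mean level are named. The constitutive proteasome and interferon response lists, where none was counted either, are given by counts and medians only. Of genes with a like pattern the 8 with the highest r are named. Levels were not scaled to transcript length, since a 3′ tag counts molecules. The comparison of heavy chain proteins was not made here.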

Additional observations from a re-analysis of the deposited data

How the results depend on the processing

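No paired analysis was possible because there is 1 library per group. Leaving out control run 1 put the ratio of the summed level (0.997 with all runs) at 0.958, and leaving out control run 2 put it at 1.04. It was 1.04 when knockout run 1 was left out and 0.910 when knockout run 2 was. The median log2 ratio of the members (0.11) was 0.075 and 0.27 in those 2 control settings, and 0.23 and -0.043 in those 2 knockout settings. Leaving out knockout run 2 also put H2-T23 at 0.982. H2-T23 was the 1 member that passed in any setting with a threshold of 1.5, with a count of 1 each. It stood at 1.54 without control run 2 (9.92% of all genes passed) and at 1.55 without knockout run 1 (8.63%). It stood at 1.53 without the retained cluster led by another cell type's marker (8.94%). This was the Chga-Cldn4 cluster alone, so the setting took out 891 knockout but only 26 control cells. Without that cluster the count was 1, the median 0.22 and the summed ratio 0.979.

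The summed ratio was 0.990 with no doublets removed, 0.947 as a mean over cells, 0.946 with cells thinned to 2000 UMIs, 0.982 with equal cluster weights and 1.02 with median-of-ratios scaling. Chosen after seeing the data, leaving out the Gal-Kcnj8 and Chga-Cldn4 clusters gave 0.961, and leaving out both interferon-responding-like clusters gave 0.972 with a median log2 ratio of 0.034. With the threshold at 25% above 1 the count was 2. Over all settings, ratios ran from 0.982 to 1.55 for H2-T23, from 1.08 to 1.47 for Nlrc5, and on both sides of 1 for the other 8 genes. The spread of the summed level over clusters (1.83 times) was 1.64 times at Leiden resolution 0.5 and 1.85 times at 1.2. The high over the low interferon tier gave 1.93 times in cells thinned to 5000 UMIs, against 1.87 times. Control run 1, the shallowest, lost 83 of 831 cells to the thinning to 2000 UMIs, against 8 to 13 in the other runs.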

Other observations

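A cluster left out for its depth also had high class I levels. It held 61 cells, 57 of them from control run 1, with a median of 1924 UMIs, and H2-Eb1, Cd74 and Ido1 were among its leading genes. The 10 members summed to 14120 CPM (13585 to 14671) there, and the interferon response genes to 20605 CPM. The other clusters left out had member sums of 9386, 9175, 9248 and 6130 CPM, and leukocyte marker sums of 1311, 451, 2509 and 365 CPM.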
